A study of Mus musculus with 8 samples.

Results

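The TRPC and TRPM channels are related families of cation channels, and 9 of their genes are described here: Trpc1, Trpc4, Trpc5, Trpc6, Trpc7, Trpm2, Trpm3, Trpm4 and Trpm7. They were taken by gene name from the 13130 genes of the deposited gene table, together with all 13 rows that carry these names among the 24526 rows of the transcript table. The family was chosen by gene name with the knockdown minus control differences and p-values of these same libraries already known. Its differences between groups are therefore a description and support nothing by themselves. The mice were C57BL/6 animals, 12 weeks old, and total RNA of their orbital frontal cortex was sequenced with a stranded kit. The 4 knockdown libraries came from tissue given short hairpin RNA against circHomer1/Homer1b, and the 4 control libraries from tissue given a scrambled hairpin. The labels name no vector, no promoter and no cell type that took up the hairpin, and do not say whether each library is a separate animal, so every error given here is the spread between libraries.

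TRPC channels open downstream of receptors coupled to Gq and phospholipase C, among them the group I metabotropic glutamate receptors that Homer proteins hold at the synapse, and Homer proteins are known to bind TRPC channels. They carry sodium and calcium and depolarise the cell. The TRPM channels of this family answer to other signals, such as ADP-ribose, calcium, steroids and heat, or magnesium.

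Homer1, the targeted gene, read 18.9, 16.5, 16.6 and 19.3 FPKM in the knockdown libraries, against 23.5, 26.3, 21.3 and 18.9 FPKM in the controls, so the groups overlapped. The means were 17.8 ± 1.49 and 22.5 ± 3.13 FPKM (SD, n = 4 each, knockdown and control). The log2 difference was -0.31 ± 0.10 (SE; limma, adjusted p = 0.273). This gene value joins the Homer1 transcripts and is not a reading of circHomer1 or Homer1b alone. FPKM are fragment numbers scaled to exonic length and to the mapped fragments of the library. Summed gene FPKM ran from 214316 to 224323 over the 8 libraries, and read depth is unknown. Knockdown replicate 4 stood apart in markers of the neighbouring olfactory bulb, whose 8 genes in the table summed to 97.7 FPKM there, to 25.5 to 30.4 FPKM in knockdown replicates 1 to 3 and to 20.9 to 34.2 FPKM in the controls. All 15 striatal projection neuron markers had a lower mean in the knockdown group, where 45.1% of all tested genes had a log2 difference below 0. Their sum ran from 204 to 536 FPKM in the knockdown group and from 271 to 887 FPKM in the controls. All 12 cortical excitatory neuron markers were in the table, with sums of 302 to 366 FPKM in the knockdown group and 273 to 366 FPKM in the controls. In bulk tissue, fewer cells of a type and less RNA per cell cannot be told apart.

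Trpm3 separated the groups. In the other 8 genes the groups overlapped. Of 13004 genes tested with limma on log2(FPKM + 1), 0 passed a Benjamini-Hochberg adjusted p of 0.05 and 1842, or 14.2%, had an unadjusted p under 0.05 (5.07% lower and 9.1% higher in the knockdown group). Of the 9 channel genes 0 passed the adjusted threshold, and 1, Trpm3, had an unadjusted p under 0.05 in the lower direction. The 4 knockdown libraries lay below every control in 1 of the 9 genes, again Trpm3, and in 3.22% of all tested genes (9.15% in either direction). The median difference of the 9 genes was -0.025 on the log2 scale, beside 0.0149 over all tested genes. In 6 of the 9 the mean was lower in the knockdown group, and the log2 difference was below 0 in 45.1% of all genes. Since the family was chosen with this contrast in view, nothing is read from these counts.

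**Figure D1:**
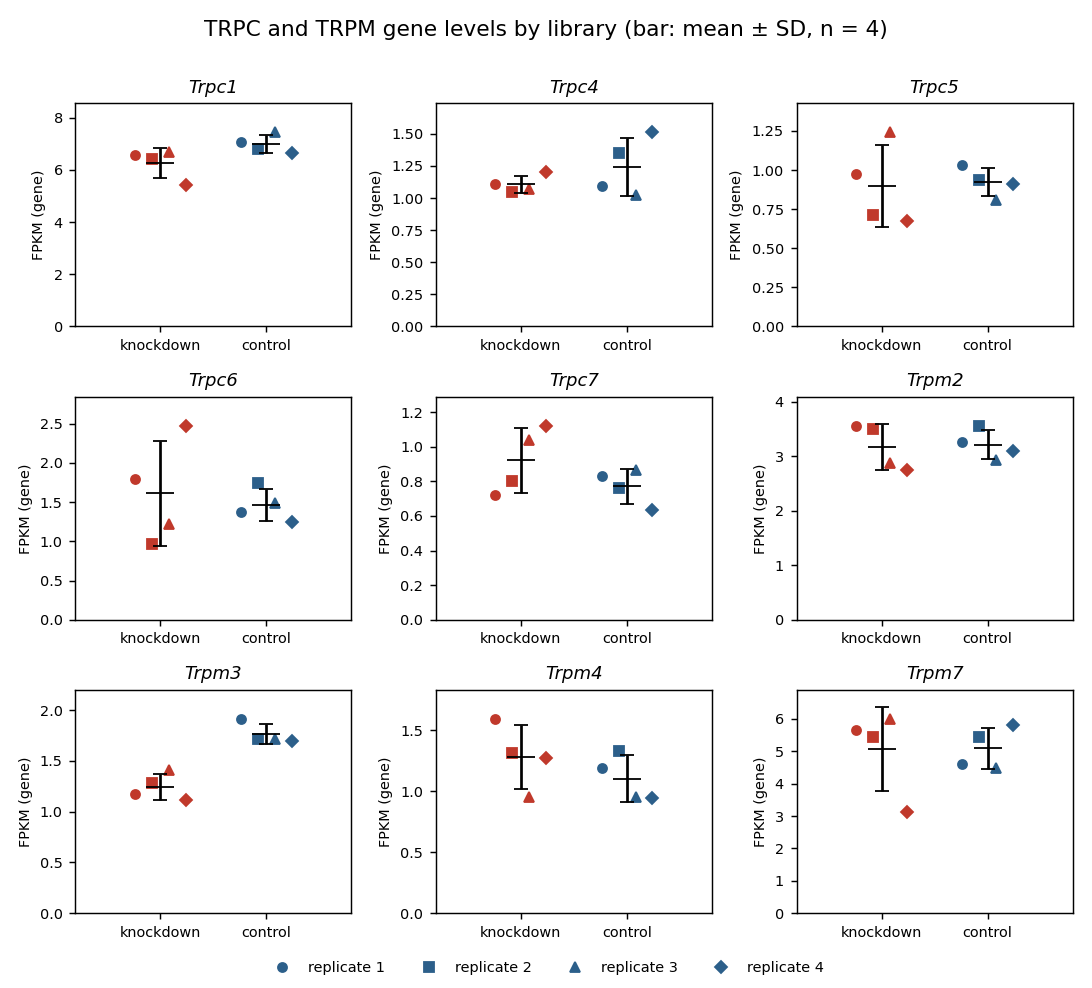
Gene FPKM of the 9 channel genes in each library, knockdown left and control right, with marker shape for the replicate number and black bars for the mean and SD of 4 libraries; each vertical axis starts at 0 and has its own scale. The knockdown libraries of Trpm3 (1.11 to 1.41 FPKM) lie below its controls (1.70 to 1.91 FPKM), and the groups overlap in the other 8 genes.

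Gene FPKM are per joint exonic length of the annotated transcripts, and the order of levels below holds for that scale. Over all 8 libraries Trpc1 was the most abundant (6.63 ± 0.585 FPKM, SD, n = 8), followed by Trpm7 (5.07 ± 0.949 FPKM) and Trpm2 (3.19 ± 0.326 FPKM). Each of these 3 was separated from the next by more than the SDs of both. Trpc6 (1.54 ± 0.465 FPKM), Trpm3 (1.50 ± 0.300 FPKM), Trpm4 (1.19 ± 0.232 FPKM), Trpc4 (1.17 ± 0.171 FPKM), Trpc5 (0.911 ± 0.183 FPKM) and Trpc7 (0.847 ± 0.163 FPKM) followed, and no neighbours in that order differed beyond their spread. The lowest of them sat near the floor of the table, where every gene reached at least 0.501 FPKM in the mean of 1 of the groups. Trpc1 varied least between libraries, with a coefficient of variation of 8.83%, and Trpc6 most, with 30.2%.

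Trpc1 encodes a subunit that forms mixed channels with Trpc4 and Trpc5 (ENSMUSG00000032839.13, chromosome 9, 95705082 to 95750375, minus strand, GRCm38). It read 6.58, 6.41, 6.67 and 5.42 FPKM in the knockdown libraries, against 7.07, 6.79, 7.43 and 6.66 FPKM in the controls. Knockdown replicate 3 and control replicate 4 met at the boundary, and the other 3 knockdown libraries lay below every control. The log2 difference was -0.14 ± 0.07 (SE; limma with Benjamini-Hochberg adjustment over all genes, adjusted p = 0.389). It was -0.0799 without knockdown replicate 4 and -0.0604 with the striatal covariate. Its main transcript, Trpc1-204, with 809 codons, read 10.7, 10.6, 10.9 and 8.85 FPKM in the knockdown libraries and 11.6, 11.2, 12.1 and 11.0 FPKM in the controls. Here the groups did not overlap, by 10.9 against 11.0 FPKM at the closest, and the log2 difference was -0.15 ± 0.08 (limma, adjusted p = 0.644 over all transcripts), or -0.0869 without knockdown replicate 4. Trpc1-204 was the 1 transcript without overlap among the 11 of the family that were tested. Over all 23415 tested transcripts, 2.66% lay lower in the knockdown group without overlap and 5.7% did so in either direction. Of the 11, 0 had an unadjusted limma p under 0.05, against 7.96% of all transcripts (3.76% lower and 4.2% higher). Of the 11, 0 passed the adjusted threshold, against 0.0256% of all transcripts, which were 6 of other genes. The difference was below 0 in 7 of the 11 and in 49.3% of all transcripts.

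Trpc4 and Trpc5 encode the pore subunits that partner Trpc1 and are known from cortical and limbic neurons. Trpc4 (chromosome 3, 54156035 to 54318471, plus strand) read 1.11, 1.05, 1.07 and 1.20 FPKM in the knockdown libraries, against 1.09, 1.35, 1.02 and 1.51 FPKM in the controls. The knockdown libraries fell within the control range, and their SD was 0.0658 FPKM against 0.227 FPKM in the controls. The log2 difference was -0.08 ± 0.08 (limma, adjusted p = 0.629). Trpc5 (chromosome X, 144381671 to 144688180, minus strand) read 0.972, 0.714, 1.24 and 0.675 FPKM in the knockdown libraries and 1.03, 0.935, 0.811 and 0.909 FPKM in the controls. Knockdown libraries were both its highest and its lowest, and the means, 0.901 ± 0.263 and 0.922 ± 0.0913 FPKM (SD, n = 4 each, knockdown and control), differed by less than either SD.

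Trpc6 and Trpc7 belong to the subgroup opened by diacylglycerol, the lipid product of phospholipase C. Trpc6 (chromosome 9, 8544142 to 8680741, plus strand) read 1.79, 0.969, 1.22 and 2.47 FPKM in the knockdown libraries, against 1.37, 1.74, 1.49 and 1.25 FPKM in the controls. The knockdown libraries spread wider on both sides (SD 0.668 against 0.210 FPKM), with replicate 4 the highest of all. That library also had the highest sum of the 7 meningeal and perivascular fibroblast markers in the table (of 10 listed), 19.6 FPKM. Igfbp2 alone made up 10.3 FPKM of that sum, and each of the 7 was highest in that library. Knockdown replicates 1 to 3 had sums of 6.37 to 11.1 FPKM and the controls 7.51 to 9.87 FPKM. Knockdown replicate 4 was highest in the 12 endothelial and mural cell markers too, with 71.3 FPKM against at most 64.3 FPKM elsewhere. It was also the highest in the olfactory bulb (97.7 FPKM), astrocyte (470 FPKM) and microglial (210 FPKM) sums. In the striatal (204 FPKM) and oligodendrocyte (634 FPKM) sums it was the lowest. Knockdown replicate 1, the next highest in Trpc6, had an endothelial and mural sum of 61.2 FPKM, within the control range. Its fibroblast sum, 11.1 FPKM, lay above every control, and Igfbp2 made up 6.69 FPKM of that. The part of any of these markers in the Trpc6 level was not tested. The log2 difference was 0.05 ± 0.17 with all libraries and -0.0935 without knockdown replicate 4. Trpc7 (chromosome 13, 56773113 to 56895789, minus strand), the lowest of the family, read 0.723, 0.804, 1.04 and 1.12 FPKM in the knockdown libraries and 0.828, 0.759, 0.864 and 0.632 FPKM in the controls. Knockdown replicates 3 and 4 lay above every control, and the log2 difference was 0.12 ± 0.08 (limma, adjusted p = 0.534). No transcript of Trpc7 is among the rows analysed here.

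Trpm3 encodes a channel opened by heat and by the neurosteroid pregnenolone sulfate (ENSMUSG00000052387.15, chromosome 19, 22139119 to 22989884, plus strand, as the deposited table gives it). It read 1.17, 1.28, 1.41 and 1.11 FPKM in the knockdown libraries, against 1.91, 1.72, 1.72 and 1.70 FPKM in the controls. The highest knockdown library lay under the lowest control, and within the controls replicates 2, 3 and 4 lay close together with replicate 1 above them. The means were 1.24 ± 0.131 and 1.77 ± 0.0991 FPKM (SD, n = 4 each, knockdown and control), a log2 difference of -0.30 ± 0.06. The adjusted p was 0.266 (limma with Benjamini-Hochberg adjustment), a value that many genes shared, and Trpm3 was at rank 21 by unadjusted p. With any single library left out the difference stayed between -0.34 and -0.28, and it was -0.24 once the level of the striatal markers was a covariate. With a pseudocount of 0.1 in place of 1 it was -0.48. Epithelium of the choroid plexus is a known site of strong Trpm3 expression. Of its 12 markers 3 are in the table, and their sum ran from 37.4 to 44.1 FPKM in the knockdown libraries and from 42.9 to 46.1 FPKM in the controls. Enpp2, which made up nearly all of that sum and is expressed by oligodendrocytes as well, read 38.6, 37.3, 43.5 and 35.7 FPKM in the knockdown libraries and 45.0, 42.1, 43.7 and 43.0 FPKM in the controls. Clic6 read 0.279, 0.444, 0.604 and 0.142 FPKM in the knockdown libraries and 1.12, 0.610, 0.880 and 0.333 FPKM in the controls, so its mean, like those of Enpp2 and Trpm3, was lower in the knockdown group. Ttr, the defining marker, read 2.15, 0.138, 0 and 1.53 FPKM in the knockdown libraries and 0, 0.247, 1.11 and 0.204 FPKM in the controls, so it was at or near 0 in libraries of both groups and its mean was higher in the knockdown group. All 10 oligodendrocyte markers had lower means in the knockdown group, where 45.1% of all tested genes had a log2 difference below 0. Their sums were 737, 1130, 1280 and 634 FPKM in the knockdown libraries and 945 to 1190 FPKM in the controls. All 8 astrocyte markers had higher means in the knockdown group, with sums of 381 to 470 FPKM there and 359 to 411 FPKM in the controls. The part of any of these markers in the Trpm3 difference was not tested.

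The listed transcripts of Trpm3 did not follow its gene value. Trpm3-203, from the upstream start, read 0, 0.424, 0.288 and 0 FPKM in the knockdown libraries and 0.401, 0.296, 0.461 and 0.892 FPKM in the controls. It was listed at 0 in knockdown replicates 1 and 4 and in no control, and the groups overlapped. Every listed transcript reached at least 0.5 FPKM in the mean of 1 of the groups. Trpm3-203 did so in the controls only (0.513 FPKM, against 0.178 FPKM in the knockdown group), so nothing is read from its lower knockdown level. Its mean was under 0.5 FPKM, so it was not tested. Trpm3-201, which begins 309164 bases downstream, read 1.70, 0.497, 0.800 and 1.60 FPKM in the knockdown libraries and 1.21, 1.07, 0.765 and 0.391 FPKM in the controls, with the same 2 knockdown libraries the highest of all. Its log2 difference was 0.19 ± 0.24 (limma, adjusted p = 0.827). Summed, both transcripts averaged 1.33 ± 0.383 FPKM in the knockdown group and 1.37 ± 0.171 FPKM in the controls (SD, n = 4 each), and with this sum as the gene value the log2 difference was -0.038 (limma, adjusted p = 0.921). That sum is not weighted by transcript length, as gene values are, so the scales are unlike. The groups were separate in the gene value and overlapped in both listed transcripts and in their sum.

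These starts lie 73 and 75 bases downstream of 2 separate RefSeq starts of Trpm3, whose upstream sequences are shown because Trpm3-203 and Trpm3-201 belong to different starts. Each is the 250 bases before the RefSeq start, plus strand, GRCm38.p6, with CpG dinucleotides in capitals. The first, before the start of Trpm3-203, is chr19:22138796-22139045 and holds 17 CpG, and the second, before that of Trpm3-201, is chr19:22447958-22448207 and holds 9. The median over 32851 RefSeq promoter windows of this length was 6.
Upstream start: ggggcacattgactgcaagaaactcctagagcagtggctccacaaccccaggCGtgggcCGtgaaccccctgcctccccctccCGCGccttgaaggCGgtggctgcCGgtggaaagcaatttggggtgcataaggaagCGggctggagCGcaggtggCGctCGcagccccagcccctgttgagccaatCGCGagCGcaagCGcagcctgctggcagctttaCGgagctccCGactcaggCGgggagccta
Downstream start: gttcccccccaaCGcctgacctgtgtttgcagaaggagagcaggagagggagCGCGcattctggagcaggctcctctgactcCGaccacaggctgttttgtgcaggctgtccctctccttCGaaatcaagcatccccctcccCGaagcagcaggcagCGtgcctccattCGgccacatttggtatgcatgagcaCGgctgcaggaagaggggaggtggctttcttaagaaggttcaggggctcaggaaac

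Trpm3 also carries the gene of miR-204, a microRNA of neural and epithelial tissues. Its hairpin lies on the same strand at chr19:22750605-22750672, inside the span of both listed transcripts, and no exon of another GENCODE M21 transcript overlaps it. The mature forms are shown to identify the passenger of this locus, with the seed, bases 2 to 8, in capitals. These tables hold protein-coding rows only, so its level is not analysed here.
miR-204-5p: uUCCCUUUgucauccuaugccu
miR-204-3p: gCUGGGAAggcaaagggacgu

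**Figure D2:**
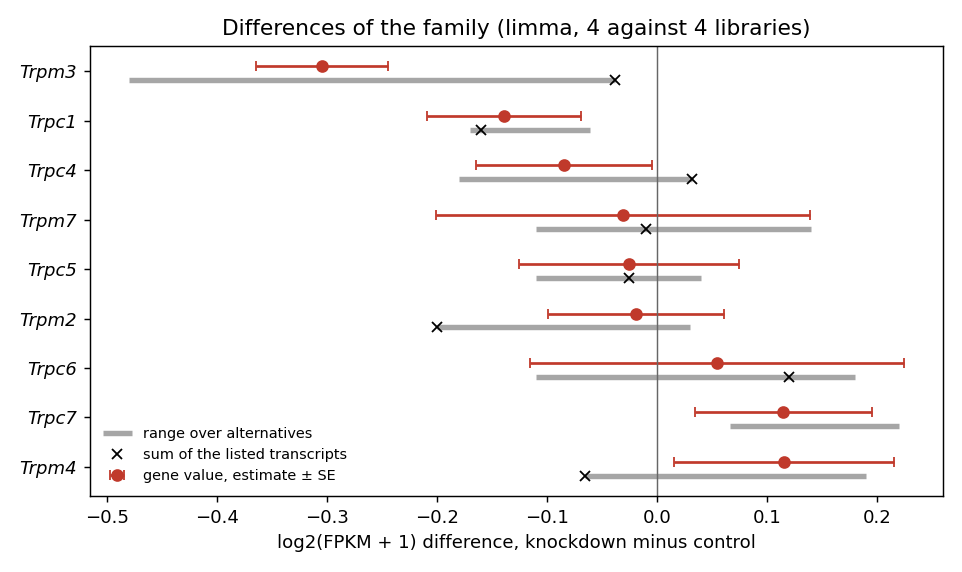
Difference on the log2(FPKM + 1) scale, knockdown minus control, for the 9 channel genes, as the limma estimate with its SE (red), the range over the alternative settings (grey) and the value with summed listed transcripts (cross, absent for Trpc7). Trpm3 lies at -0.30 with a cross at -0.038, and the estimates of the other 8 lie between -0.14 and 0.12.

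Trpm2 encodes a channel gated by ADP-ribose and oxidative stress, known from microglia as well as neurons (chromosome 10, 77907722 to 77970563, minus strand). It read 3.55, 3.51, 2.87 and 2.75 FPKM in the knockdown libraries, against 3.26, 3.56, 2.94 and 3.09 FPKM in the controls. The groups covered nearly the same range, and the means, 3.17 ± 0.420 and 3.21 ± 0.265 FPKM (SD, n = 4 each, knockdown and control), differed by less than either SD. All 10 microglial markers were in the table and summed to 159 to 210 FPKM in the knockdown libraries and 174 to 195 FPKM in the controls. Knockdown replicate 4 had the highest microglial sum and the lowest Trpm2.

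Trpm4 encodes a channel that calcium opens and that passes sodium and potassium but not calcium (chromosome 7, 45302632 to 45333780, minus strand). It read 1.59, 1.31, 0.956 and 1.27 FPKM in the knockdown libraries and 1.19, 1.33, 0.953 and 0.941 FPKM in the controls. Only knockdown replicate 1 lay outside the control range, and the log2 difference was 0.12 ± 0.10 (limma, adjusted p = 0.604). Trpm7 encodes a channel fused to a protein kinase that takes part in magnesium balance (chromosome 2, 126791565 to 126876230, minus strand). It read 5.67, 5.43, 5.99 and 3.14 FPKM in the knockdown libraries, against 4.61, 5.45, 4.49 and 5.81 FPKM in the controls. Knockdown replicate 4 was the lowest of all, and the log2 difference was -0.03 ± 0.17 with it and 0.14 without it. That library is the one with the high olfactory bulb markers, and several other marker sums were also at an extreme in it. Their part in the Trpm7 level was not tested.

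The isoforms of Trpm7, Trpc4 and Trpc6 moved more between libraries than the gene values did. Trpm7-201 read 5.96, 4.81, 2.83 and 0.422 FPKM in the knockdown libraries, against 1.09, 1.60, 1.60 and 2.13 FPKM in the controls. In the knockdown group 3 libraries lay above every control and the fourth below every control. Trpm7-202 read 2.30, 3.35, 5.90 and 3.73 FPKM in the knockdown libraries and 5.27, 6.27, 4.60 and 6.18 FPKM in the controls. As a share of both, Trpm7-202 made up 27.9%, 41.0%, 67.6% and 89.8% in the knockdown libraries, against 82.9%, 79.7%, 74.2% and 74.4% in the controls, so the share spread more widely among the knockdown libraries than among the controls (SD 27.6 against 4.26 percentage points). The mean share was 56.6% in the knockdown group and 77.8% in the controls, and the groups overlapped. The log2 differences were 0.58 ± 0.47 for Trpm7-201 and -0.49 ± 0.22 for Trpm7-202 (limma, adjusted p of 0.745 and 0.632 over all transcripts). That of Trpm7-201 was 0.30 without knockdown replicate 1, 0.38 without knockdown replicate 2 and 1.06 without knockdown replicate 4.

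These isoforms of Trpm7 share 6985 of the 7107 bases of the longer one, so the split between them rests on 122 bases. In the coding part they differ by 3 bases, or 1 codon, in exon 29 (chr2:126805085-126805087, minus strand, GRCm38, from GENCODE M21). The window is shown to make clear how little tells them apart, with the 3 bases in capitals. The proteins have 1863 and 1862 codons.
Trpm7-202: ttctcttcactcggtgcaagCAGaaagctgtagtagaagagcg
Trpm7-201: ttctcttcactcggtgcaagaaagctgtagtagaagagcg

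Trpc4-205 read 1.71, 2.25, 2.19 and 1.68 FPKM in the knockdown libraries and 1.02, 1.41, 0.992 and 3.24 FPKM in the controls. All 4 knockdown libraries lay above 3 of the controls and below control replicate 4. Trpc4-201 read 0.231, 0.178, 0.178 and 0.469 FPKM in the knockdown libraries and 0.582, 0.574, 0.784 and 0.304 FPKM in the controls, again with control replicate 4 apart from the other controls. The share of Trpc4-205 was 88.1%, 92.7%, 92.5% and 78.2% in the knockdown libraries, against 63.7%, 71.0%, 55.9% and 91.4% in the controls. The mean share was 87.9% ± 6.78 in the knockdown group and 70.5% ± 15.2 in the controls (SD, n = 4 each). The difference was 17.3 percentage points and ran from 12.5 to 24.3 when 1 library was left out. Trpc4-201 reached the 0.5 FPKM that listed transcripts share in the control mean only (0.561 FPKM, against 0.264 FPKM in the knockdown group). That floor could itself favour a lower knockdown level of Trpc4-201, so nothing is read from the share difference.

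Trpc4-201 has 974 codons and Trpc4-205 has 890, the long and short proteins known as Trpc4 alpha and beta. They differ in the coding part by a single block of 252 bases, or 84 codons, in the last exon of Trpc4-201 (chr3:54317573-54317824, plus strand, GRCm38, from GENCODE M21), in the part that encodes the cytoplasmic tail. The block is shown because it is all that separates the isoforms in the protein. Its first and last 2 bases, in capitals, are the letters that also begin and end most introns.
Trpc4-201 block: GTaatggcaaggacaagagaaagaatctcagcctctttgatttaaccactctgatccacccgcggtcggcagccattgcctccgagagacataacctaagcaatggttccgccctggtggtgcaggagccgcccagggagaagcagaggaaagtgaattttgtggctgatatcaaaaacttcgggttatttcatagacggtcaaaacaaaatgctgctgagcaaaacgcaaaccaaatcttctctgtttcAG

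Trpc6-202 read 1.44, 1.25, 0 and 1.38 FPKM in the knockdown libraries, against 1.05, 1.16, 1.18 and 1.11 FPKM in the controls. It was listed at 0 in knockdown replicate 3, and the other 3 knockdown libraries lay above every control. Trpc6-201 read 1.01, 0.333, 1.56 and 1.93 FPKM in the knockdown libraries and 0.723, 1.04, 0.770 and 0.612 FPKM in the controls. The library with Trpc6-202 listed at 0 was thus among the highest in Trpc6-201. These isoforms share 2913 of the 3259 bases of the longer one, so the split between them rests on 346 bases. Trpc6-202, with 852 codons, lacks exon 6 of Trpc6-201, with 930, which is 234 coding bases (chr9:8649298-8649531, plus strand, GRCm38, from GENCODE M21). The exon is shown because it is the coding difference between the isoforms; 346 bases in all are not shared, the others lying outside the coding part.
Trpc6-201 exon 6: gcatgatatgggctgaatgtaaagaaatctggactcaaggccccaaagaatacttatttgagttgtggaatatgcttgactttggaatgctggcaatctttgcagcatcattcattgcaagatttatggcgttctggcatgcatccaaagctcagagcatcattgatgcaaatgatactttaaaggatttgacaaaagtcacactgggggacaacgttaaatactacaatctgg

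**Figure D3:**
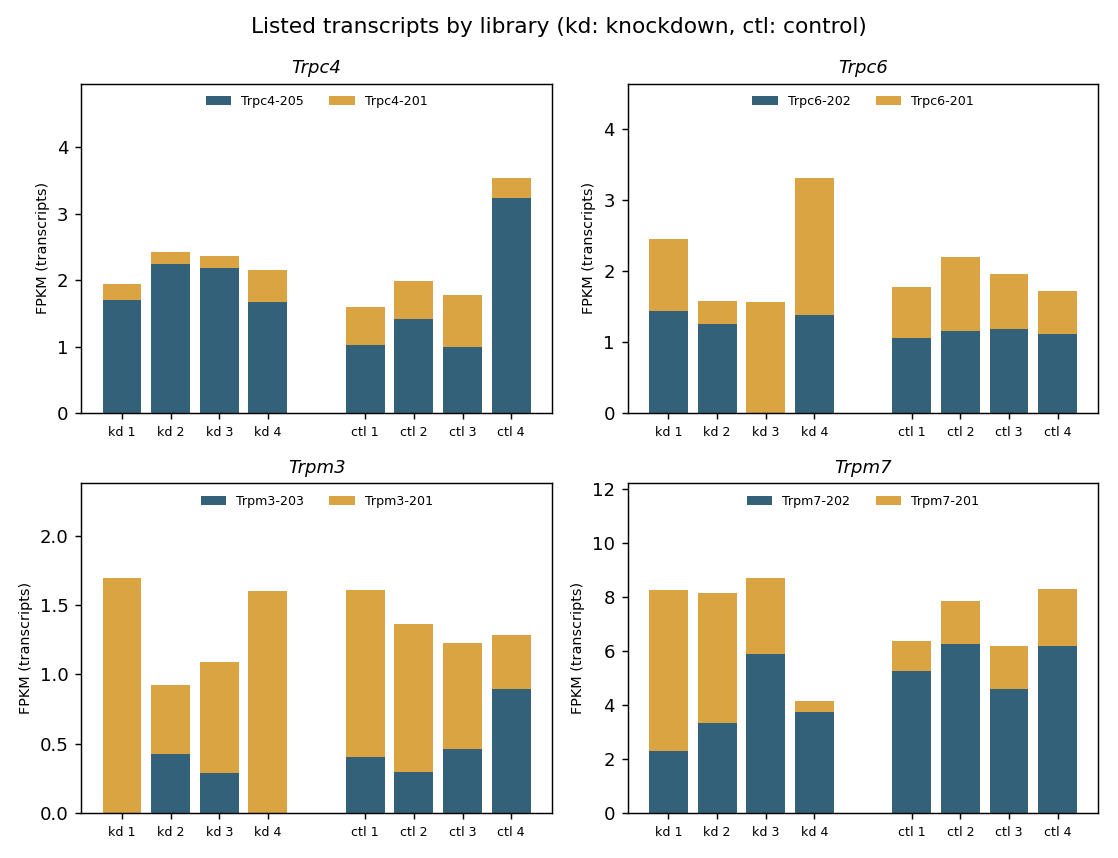
FPKM of the listed transcripts of Trpc4, Trpc6, Trpm3 and Trpm7 in each library, stacked, with the 4 knockdown libraries left of the 4 controls. The mix of Trpm7-202 and Trpm7-201 differs from library to library in the knockdown group, where Trpm7-202 makes up 27.9% to 89.8%, and stays at 74.2% to 82.9% in the controls.

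The gene values of the channels were carried to very different extents by the transcripts listed in the table. In 398 of 399 genes that have several annotated transcripts, all of them listed, the deposited gene FPKM equalled the transcript FPKM weighted by transcript length and divided by the joint exonic length of the gene, within a relative tolerance of 0.001. By that relation the listed transcripts accounted for a median of 95.2% of the gene value for Trpc5, 94.4% for Trpc1, 89.9% for Trpm7, 82.4% for Trpc6 and 72.1% for Trpc4 over the 8 libraries. For Trpm2 the median was 42.4% and for Trpm4 17.7%. Trpm4-201, the full-length channel transcript with 1213 codons, accounted for 7.67%, 23.2%, 29.2% and 3.73% of the Trpm4 gene value in the knockdown libraries, against 13.7%, 12.6%, 21.7% and 30.7% in the controls. By the same relation the remainder belongs to transcripts outside the table, whose own values were not seen. GENCODE M21 annotates 8 such Trpm4 transcripts, 6 of them of a type other than protein-coding, and the release the authors used is not given in the sources used here. Trpm4-201 itself read 0.312, 0.781, 0.713 and 0.121 FPKM in the knockdown libraries and 0.419, 0.427, 0.528 and 0.739 FPKM in the controls, with knockdown libraries at both ends. The order of knockdown replicates 1 and 3 in it was the reverse of that in the gene value.

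For Trpm2, Trpm2-203, with 1506 codons, read 1.96, 2.51, 2.20 and 1.56 FPKM in the knockdown libraries, against 2.31, 2.65, 2.17 and 2.90 FPKM in the controls. The part of the gene value not carried by it averaged 1.97 ± 0.349 FPKM in the knockdown group and 1.75 ± 0.272 FPKM in the controls (SD, n = 4 each). The log2 difference was -0.20 ± 0.13 for the transcript (limma, adjusted p = 0.693) and -0.02 ± 0.08 for the gene. The same share could not be computed for Trpm3, whose version in the table differs from that in GENCODE M21, nor for Trpc7. On the scale of summed listed transcripts, Trpm4 was the lowest of the 8 genes that have any (0.505 ± 0.231 FPKM, SD, n = 8), and Trpc1 (11.8 ± 1.06 FPKM) and Trpm7 (7.26 ± 1.56 FPKM) were again the highest. Trpm2 (2.28 ± 0.417 FPKM), Trpc4 (2.22 ± 0.602 FPKM) and Trpc6 (2.07 ± 0.588 FPKM) lay within each other's spread on this scale, so the separation of Trpm2 from the next gene did not hold.

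**Figure D4:**
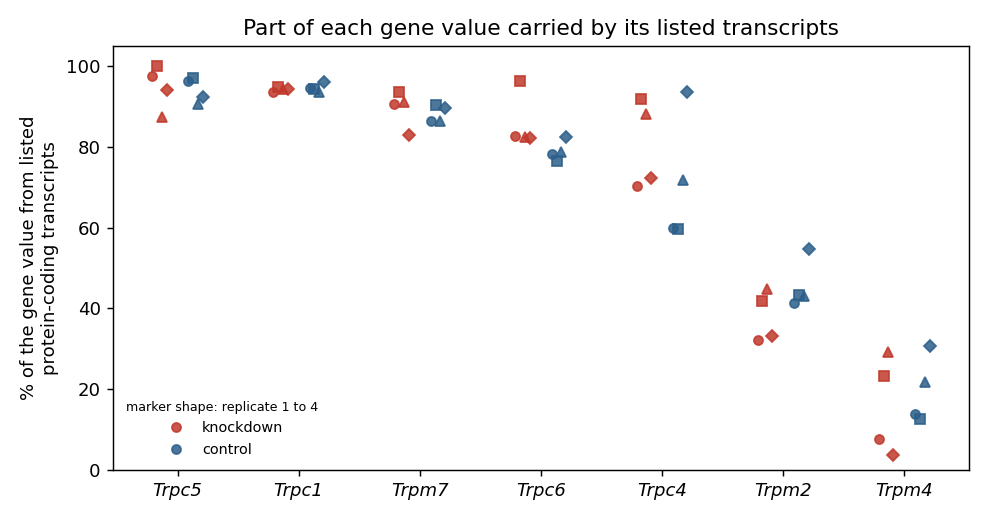
Percent of each gene value carried by its transcripts listed in the table, per library, knockdown in red left of control in blue, with marker shape for the replicate number. Trpc5 and Trpc1 lie near the top (medians 95.2% and 94.4%), and Trpm4 lies lowest (3.73% to 30.7%).

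Over the 8 libraries, the genes most like Trpm3 in the shape of their levels were Pik3r4, Yipf6 and Itch, with root mean square distances of 0.198, 0.200 and 0.258 between z-scored log2(FPKM + 1) values. The 3 most like Trpc1 were Atl2, Fgf14 and Snx12, at 0.180, 0.185 and 0.211. The distances were ranked over 11589 genes with a mean of at least 1 FPKM, and all of these values come from the same 8 libraries. The log2 differences were -0.28, -0.25 and -0.21 for Pik3r4, Yipf6 and Itch, and -0.17, -0.27 and -0.06 for Atl2, Fgf14 and Snx12. The distances include the split between groups, and among 11589 genes some lie close over 8 values by chance, so nothing is read from them.

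Of 19 other TRP genes, 5 are in the table, and 0 passed the adjusted threshold. In 4 of them the log2 difference was above 0. Trpv2, a channel of the vanilloid group, read 4.00, 4.02, 3.86 and 4.41 FPKM in the knockdown libraries and 3.23, 3.67, 3.04 and 3.48 FPKM in the controls, so that every knockdown library was above every control, as in 5.93% of all genes. Its log2 difference was 0.22 ± 0.06 (limma, adjusted p = 0.266).

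Upstream of the TRPC channels, 16 of 18 listed genes for receptors, Gq proteins, phospholipase C, IP3 receptors and Homer proteins are in the table. None passed the adjusted threshold with limma. At an unadjusted p under 0.05 there were 1 higher and 4 lower, beside 9.1% higher and 5.07% lower of all genes; Homer1, the targeted gene, is among the 4, and the median difference was 0.025. Itpr1, the main neuronal IP3 receptor, read 39.7, 39.4, 38.4 and 28.3 FPKM in the knockdown libraries and 46.0, 44.6, 47.5 and 43.4 FPKM in the controls. Every knockdown library was below every control, replicate 4 by the most, as in 3.22% of all tested genes. The log2 difference was -0.32 ± 0.10 (limma, adjusted p = 0.274). Without replicate 4 and in all other alternatives it stayed between -0.37 and -0.20.

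Among the 5 Stim and Orai genes of store-operated calcium entry, 0 passed the adjusted threshold. Orai1, a pore subunit at the plasma membrane, read 2.02, 1.83, 1.99 and 2.37 FPKM in the knockdown libraries, against 1.75, 1.61, 1.68 and 1.47 FPKM in the controls. Every knockdown library was above every control, as in 5.93% of all tested genes. The log2 difference of Orai1 was 0.22 ± 0.07 (limma, adjusted p = 0.270). Stim2, a calcium sensor of the endoplasmic reticulum, averaged 9.60 ± 1.99 FPKM in the knockdown group and 11.1 ± 0.634 FPKM in the controls (SD, n = 4 each). Of the 18 partners and regulators of the channels, all were in the table and 0 passed. Slc9a3r2, a PDZ adaptor, averaged 17.7 ± 3.97 FPKM in the knockdown group and 13.7 ± 0.721 FPKM in the controls, a log2 difference of 0.33 that was 0.19 without knockdown replicate 4, which read 23.6 FPKM. Pik3ca, a lipid kinase subunit, averaged 4.53 ± 0.414 FPKM in the knockdown group and 5.30 ± 0.198 FPKM in the controls (SD, n = 4 each). Of the 10 genes around the ADP-ribose that opens Trpm2, 8 are in the table, and 0 passed or reached an unadjusted p under 0.05. Nudt9, an ADP-ribose hydrolase, averaged 17.5 ± 0.741 FPKM in the knockdown group and 16.2 ± 0.779 FPKM in the controls. Parp1, whose polymer is a source of ADP-ribose, averaged 14.6 ± 0.626 FPKM in the knockdown group and 15.1 ± 0.438 FPKM in the controls (SD, n = 4 each).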

How the data were processed

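RNA of 8 libraries was measured as FPKM per gene and per transcript, per the file headers. The submitters' processing notes name FastQC, cutadapt, HISAT2 and StringTie, and name no genome build. GENCODE M21 holds 87.5% of the 13130 genes under the same versioned identifier, and all 11493 have identical coordinates in it, so coordinates are on GRCm38. All deposited rows were protein-coding. FPKM carry no counts, so depth, and any interval that needs it, is unknown.

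Rows whose mean over the libraries reached 0.5 FPKM were compared on log2(FPKM + 1), which understates the change of low genes, with limma 3.58.1 in R 4.3.3 (trend and robust settings, two-sided, no block, Benjamini-Hochberg). The test was tried on simulated data, and no result here rests on that trial. The alternatives changed the pseudocount, the filter, scaling, moderation, block, covariate, gene value or libraries. The members, lists and tests were chosen with earlier results of these data known. Named genes are the 9 members, Homer1, the 2 smallest p of each pathway list, and the 3 genes nearest to Trpm3 and to Trpc1 in profile (predicted genes left out). A gene that this rule names is not reported here. Ttr, Clic6, Enpp2 and Igfbp2 were named after their values were seen. Marker lists are given by their sums. Sequences are from RefSeq (GRCm38.p6) and GENCODE M21.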

Additional observations from a re-analysis of the deposited data

Results flagged for a closer look

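Within the 44 groups of 4 values examined (9 genes and 13 transcripts in both groups), 3 had a library far from the other 3, where chance gives about 1 in 20. Trpm3 read 1.91 FPKM in control replicate 1, against 1.70 to 1.72 FPKM in the other controls. Trpc1-204 read 8.85 FPKM in knockdown replicate 4, and 10.6 to 10.9 FPKM in knockdown replicates 1 to 3, just past the critical gap. Trpc6-202 was listed at 0 FPKM in knockdown replicate 3, against 1.25 to 1.44 FPKM in the others.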

How the results depend on the processing

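None of the 9 genes, the 11 tested transcripts and the other named genes that were run passed the adjusted threshold in the alternatives run. Trpc4-201, Trpm3-203 and the marker genes were not run. The count of genes past it was 0 and ranged from 0 to 2 with 1 library left out (2 without knockdown replicate 4). For transcripts it was 6, from 9 to 19 with 1 library left out, and 4 with the replicate block. The deviations of same-numbered libraries correlated from -0.185 to 0.2, and no pairing by number was assumed. So few values cannot exclude one. The median difference of the family ran from -0.077 to 0.031 and moved by less than the spread between libraries, but its sign turned. Summed transcripts turned Trpc4 to 0.0321 and Trpm4 to -0.0656. The striatal covariate turned Trpc5 to 0.04, Trpc6 to -0.11, Trpm7 to 0.0443, Trpc5-201 to 0.0379 and Trpm4-201 to 0.0408. With 1 library left out, the sign turned for Trpc5 (-0.11 to 0.0325), Trpc6 (-0.0935 to 0.18), Trpm2 (-0.0634 to 0.0305), Trpm7 (-0.11 to 0.14), Trpc5-201 (-0.0925 to 0.0362), Trpc6-202 (-0.28 to 0.15) and Trpm4-201 (-0.0998 to 0.0598), given as lowest to highest. It turned without knockdown replicate 4 for all of these but Trpc6-202, without knockdown replicate 3 for Trpc6-202 and Trpm2, without knockdown replicate 2 or control replicate 1 for Trpc5 and Trpc5-201, without control replicate 2 for Trpm2 and without control replicate 4 for Trpm7. The cause was not tested. The isoform share differences, with 1 library left out, ran in percentage points from -0.481 to 1.6 for Trpc1-204, 12.5 to 24.3 for Trpc4-205, -25.7 to 0.601 for Trpc6-202, -29.6 to -9.95 for Trpm3-203 and -32.3 to -11.6 for Trpm7-202. Trpc4-201 and Trpm3-203 were listed through the control mean only, so the share differences of Trpc4 and Trpm3 support nothing. In the other 607 of 628 values of named genes and transcripts the direction held. Trpc1, Trpc7 and Trpm3 kept their direction in every alternative that could be run. Summed transcripts gave no value for Trpc7, nor the filter at 1 FPKM for Trpc5 and Trpc7. With unknown depth, no floor can be given for the low channels.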

Other observations

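Of the 9 channel genes, 8 have a RefSeq promoter window (9 windows, since Trpm3 has 2 starts), taken as the 250 bases before the start. CpG counts ran from 2 for Trpc7 to 26 for Trpm7, where the quartiles over 32851 windows were 2, 6 and 16. The GC box GGGCGG, on either strand, was found in 3 of the 9 windows (Trpc1, Trpc4 and Trpm2) and in 32.7% of all windows. TATAAA, on either strand, was found in 2 (Trpc4 and Trpm2) and in 12.4% of all windows. The palindrome TGACGTCA was found in 0 of the 9 and in 1.55% of all windows. None of the 3 motifs contains another, and a match is only a run of letters.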
